A study of Mus musculus with 10 samples.

Results

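The genes described here are 9 markers of B cells and plasma cells, and they were read on whole skin from the C3H/HeJ grafted mouse model of alopecia areata (AA). They are Cd79a, Cd79b, Blk, Cd22, Ms4a1, Pax5, Jchain, Mzb1 and Sdc1. Every probe set that the platform annotation gave exactly 1 of these symbols was taken, which gave 15 probe sets out of 45037 on the array and 9 genes out of 18193 with a name. The selection rule uses symbols and no measured value, although the list was drawn up with earlier results of these data known. The question asked of them was whether skin from baricitinib treated mice and skin from vehicle control mice differed in B lineage transcripts. Baricitinib blocks JAK1 and JAK2, the kinases through which interferons and many other cytokines signal.

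In this model, skin from an alopecic C3H/HeJ mouse is grafted onto a disease-free C3H/HeJ recipient, which then tends to lose hair, so all animals of both groups carried a graft. Osmotic pumps placed at grafting released baricitinib in 1 group and vehicle in the other, and biopsies were taken at week 12. There were 5 baricitinib treated and 5 vehicle control mice, with 1 array per mouse. The labels give the tissue as skin alone, and Krt5, a keratin of basal keratinocytes, was at 13.04 to 13.67 log2 on all arrays. The baricitinib arrays are numbered B1 to B5 and the vehicle arrays V1 to V5 after the replicate numbers in their labels. Values are log2 expression values per probe set, so that a difference of 1 is a doubling, and every difference is baricitinib minus vehicle. In whole skin, fewer cells of a type and less RNA per cell cannot be told apart.

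B cells recognise antigen through a membrane immunoglobulin that signals through the Cd79a and Cd79b chains, and Src family kinases such as Blk act directly behind it. When activated B cells become plasma cells, Prdm1, Irf4 and Xbp1 shut down much of the B cell program, Pax5 and Ms4a1 included, and enlarge the secretory machinery. Plasma cells that secrete IgA or polymeric IgM also make Jchain, the chain that joins antibody units. Normal skin holds few B cells, although antibody secreting cells can lodge in it. Some of the markers have other sources as well. Sdc1 is abundant in keratinocytes, Blk is also made by some gamma delta T cells and Mzb1 by plasmacytoid dendritic cells.

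Promoter sequence is shown for the 3 members with the largest differences among the 5 whose promoters were in the RefSeq table used (assembly GRCm38.p6, C57BL/6J reference). Each line gives the 250 bases before the annotated start, 5′ to 3′ on the strand of the gene, and capitals mark a motif match. Pax5 and Sdc1 were in the table and are not printed. Ms4a1, Blk, Cd79b and Mzb1 were not matched.
Jchain (chr5:88527898-88528147, minus strand): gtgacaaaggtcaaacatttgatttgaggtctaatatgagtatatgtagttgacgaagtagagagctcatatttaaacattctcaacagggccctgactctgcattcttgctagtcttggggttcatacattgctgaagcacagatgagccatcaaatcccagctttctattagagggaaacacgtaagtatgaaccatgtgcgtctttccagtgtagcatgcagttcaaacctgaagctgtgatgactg
Cd79a (chr7:24897247-24897496, plus strand): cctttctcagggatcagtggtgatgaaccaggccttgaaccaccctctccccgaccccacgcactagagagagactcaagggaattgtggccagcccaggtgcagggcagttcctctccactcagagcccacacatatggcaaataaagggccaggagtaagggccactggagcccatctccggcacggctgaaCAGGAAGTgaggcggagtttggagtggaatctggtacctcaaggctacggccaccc
Cd22 (chr7:30879029-30879278, minus strand): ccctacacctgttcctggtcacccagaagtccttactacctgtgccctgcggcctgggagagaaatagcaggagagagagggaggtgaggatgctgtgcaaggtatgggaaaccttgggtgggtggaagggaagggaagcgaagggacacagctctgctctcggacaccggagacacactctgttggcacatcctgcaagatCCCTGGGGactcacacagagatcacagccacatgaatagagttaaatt

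Both strands were searched for 4 short motifs known from B cell and cytokine responsive promoters, which were picked with the sequences in view. The capitals in Cd79a mark an ETS motif, CAGGAAGT, from -56 to -49 before the start. The same letters stood in 2.69% of the 32851 promoters of this length in the table. The capitals in Cd22 mark a match to the EBF motif, CCCNNGGG, from -48 to -41, and this motif stood in 11.8% of promoters. Sdc1 held 3 matches to the EBF motif. None of the 4 motifs was found in the Jchain window, which for the octamer, ATGCAAAT, was so in all but 1.6% of promoters and for the STAT motif, TTCNNNGAA, in all but 7.02%. No value on the array bears on these motifs directly.

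A pair of arrays stood apart from the rest of their groups, and for the markers the values without V5 are therefore given as well, and without B5 where that array set the overlap. For other genes the value without V5 is given where it differs by over 1.5 times. V5 correlated with the other arrays at a median r of 0.705, against 0.959 to 0.981 for the other 9, and its log2 values had an SD of 2.28 against 2.71 to 2.79. Its mean over 14 T cell genes was 6.27 log2, inside the 6.16 to 6.74 of B1 to B4 and below the 7.87 to 8.37 of V1 to V4. B5 correlated like the other arrays, but its T cell mean was 7.71, far above B1 to B4. Cd8a, the coreceptor chain of cytotoxic T cells, was at 10.02 on B5 and 4.22 to 4.93 on B1 to B4, and at 4.81 on V5 and 10.17 to 11.03 on V1 to V4. On these T cell genes both arrays thus lay nearer to the opposite group than to their own. The excess of 3' over 5' signal in Gapdh and beta-actin, a measure that widens as RNA degrades, was 0.99 to 1.18 log2 on the baricitinib arrays. On V1 to V5 it was 3.03, 1.998, 4.35, 1.01 and 4.06.

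Over the markers as a whole, 8 of 9 genes had a negative difference, each read by its brightest probe set, against 49.7% of all named genes. The median difference was -0.76 log2, against 0.005 over all named genes. By probe set, 12 of 15 were negative (55.4% of all probe sets), and all 11 probe sets other than those of Sdc1 were. None of the 15 passed an adjusted p of 0.05 in limma, nor did any of the 45037 probe sets (background 0%). At an unadjusted p under 0.05, 7 of 15 were lower and 0 higher in baricitinib treated skin, against a background of 5.62% and 9.21%. These were Jchain, Cd79a, Cd79b and both probe sets of Cd22 and of Ms4a1. In 0 of 15 did the groups fail to overlap, against 2.03% of all probe sets with baricitinib lower and 3.09% with it higher. Without V5 the median was again -0.76 and 9 of 9 genes were negative (57.2% of named genes), with 7 probe sets lower and 0 higher at an unadjusted p under 0.05 (background 13.5% and 14.4%). The 7 were not the same, since Cd79a and 1423226_at of Ms4a1 dropped out and Blk and 1454401_at of Pax5 came in. Without B5 the median was -0.89. With V5 left out, 0 of the 45037 probe sets passed the adjusted threshold. Array quality weights, estimated from these same arrays, gave V5 a weight of 0.0289, V4 one of 0.497 and B1 one of 5.43. In that setting 8 of 15 passed the adjusted threshold, as did 21.5% of all probe sets.

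**Figure D1:**
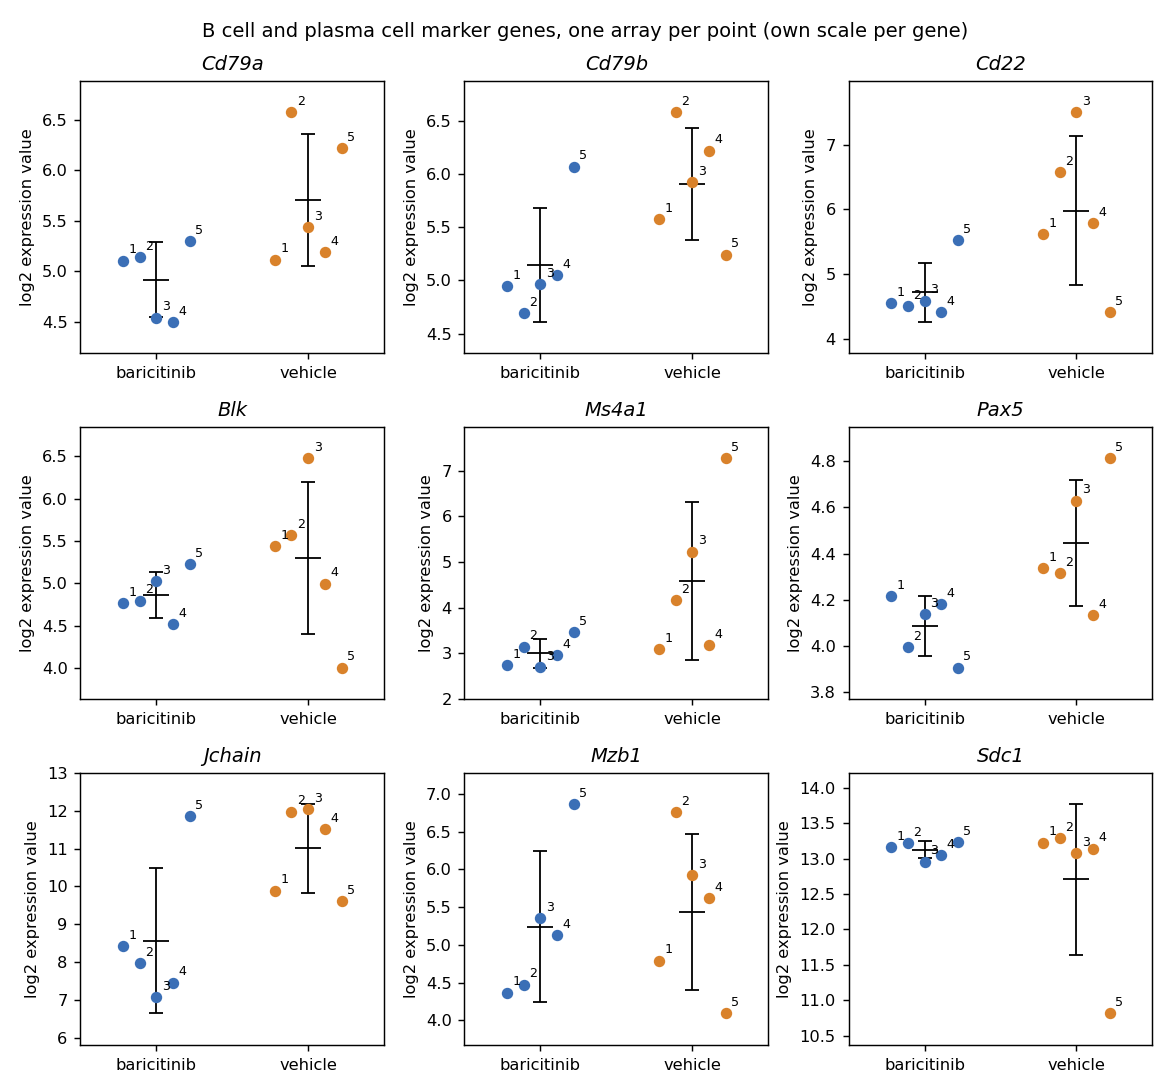
Log2 expression value (y axis, own scale per gene) of the brightest probe set of each of the 9 genes, with 5 baricitinib (blue) and 5 vehicle (orange) arrays as points numbered by replicate, and bars for mean and SD. Jchain on B1 to B4 sits between 7.06 and 8.43, below every vehicle array, while B5 is at 11.87. Sdc1 is at 12.96 to 13.29 on all arrays except V5, at 10.81.

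The signal chains of the B cell antigen receptor had means that were 1.73-fold lower (Cd79a) and 1.70-fold lower (Cd79b) in baricitinib treated skin, and neither passed the adjusted threshold. Cd79a, read by 1418830_at, was at 5.10, 5.14, 4.54, 4.497 and 5.29 log2 on the baricitinib arrays and 5.11, 6.57, 5.44, 5.18 and 6.22 on the vehicle arrays. V2 and V5 were high, and V1 and V4 were within the baricitinib range, so the groups overlapped. The difference was -0.79 (SE 0.32, 95% interval -1.50 to -0.08, adjusted p = 0.306, n = 5 per group), and -0.66 (adjusted p = 0.195) without V5. Cd79b, read by 1417640_at, was at 4.94, 4.69, 4.97, 5.05 and 6.07 with baricitinib and 5.57, 6.58, 5.92, 6.22 and 5.24 with vehicle. Here the overlap came from B5 alone, which was above 3 vehicle arrays. The difference of Cd79b was -0.76 (SE 0.32, 95% interval -1.47 to -0.05, adjusted p = 0.317), and -0.93 (adjusted p = 0.0998) without V5.

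Cd22 is a sialic acid binding coreceptor that dampens antigen receptor signalling. Its probe set 1419768_at was at 4.56, 4.51, 4.60, 4.42 and 5.52 log2 with baricitinib and at 5.62, 6.58, 7.49, 5.79 and 4.42 with vehicle. V3 and V2 were the highest of all arrays, and V5 was level with the lowest baricitinib array. The means were 4.72 ± 0.45 and 5.98 ± 1.15 (SD, n = 5 each), a difference of -1.26 (SE 0.50, 95% interval -2.38 to -0.14, adjusted p = 0.302), or 2.39-fold lower with baricitinib. Without V5 the groups no longer overlapped, as in 4.11% of all probe sets with baricitinib lower, and the difference was -1.65 (adjusted p = 0.0738). This was the single member probe set without overlap in that setting. The dimmer 1419769_at was at 3.43 to 3.91 with baricitinib and 3.81 to 4.31 with vehicle. Its difference was -0.47 (SE 0.17), and -0.43 without V5, and its adjusted p of 0.268 was the lowest among the 15.

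For Blk, the Src family kinase, V4 and V5 made the groups overlap, while V1 to V3 were above every baricitinib array. Its probe set 1422775_at was at 4.76, 4.79, 5.02, 4.52 and 5.23 log2 with baricitinib and 5.44, 5.57, 6.48, 4.996 and 4.001 with vehicle. V5 was the lowest array of all and V3 the highest. The difference was -0.43 (SE 0.39, 95% interval -1.30 to 0.44, adjusted p = 0.526), and single vehicle arrays moved it both ways, to -0.76 (adjusted p = 0.123) without V5 and to -0.14 (adjusted p = 0.808) without V3. The gamma delta T cell list, a possible other source of Blk, had 3 measured genes of 7. Their mean was 5.64 to 6.02 log2 on the baricitinib arrays and 5.48 to 6.19 on the vehicle arrays, and its part in the Blk value was not tested.

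Ms4a1 encodes CD20, the surface marker of mature B cells that plasma cells lack, and its values were spread widely among the vehicle mice. Probe set 1423226_at was at 2.73, 3.14, 2.70, 2.96 and 3.46 log2 with baricitinib and 3.09, 4.16, 5.23, 3.17 and 7.27 with vehicle. All baricitinib arrays were low, while V5 and V3 were high and V1 and V4 lay within the baricitinib range. The difference was -1.58 (SE 0.71, 95% interval -3.16 to -0.01, adjusted p = 0.335), and leaving out V5, the highest array, gave -0.91 (adjusted p = 0.180). Probe set 1450912_at, on which V5 was not the highest, was at 2.61, 2.72, 2.36, 2.43 and 3.83 with baricitinib and 2.92, 4.68, 5.45, 3.18 and 4.76 with vehicle. Its difference was -1.41 (SE 0.51, adjusted p = 0.275), and -1.27 (adjusted p = 0.159) without V5. The probe sets of Ms4a1 thus shared a direction but placed V5 differently, above V3 on 1423226_at and below it on 1450912_at. With the 3'/5' excess as a covariate the difference of 1423226_at was 0.03 (SE 0.78) and that of 1450912_at was -0.51 (SE 0.65). With it the differences of Jchain (-2.93, SE 1.35) and Cd79b (-1.24, SE 0.43) were larger in size, and Cd22 1419768_at was at -1.22 (SE 0.76). No marker probe set passed the adjusted threshold with this covariate. The excess was higher on V1, V2, V3 and V5 than on any baricitinib array, so this setting cannot tell it apart from treatment.

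Pax5, the transcription factor that holds B cells to their identity, had the smallest spread among the markers, each read by its brightest probe set. Probe set 1421765_at was at 4.21, 3.99, 4.14, 4.18 and 3.91 log2 with baricitinib and 4.34, 4.32, 4.63, 4.13 and 4.81 with vehicle. All vehicle arrays except V4 were above every baricitinib array. The difference was -0.36 (SE 0.17, 95% interval -0.73 to 0.01, adjusted p = 0.344), and -0.27 (adjusted p = 0.193) without V5. The other probe set, 1454401_at, lay at 3.15 to 3.35 with baricitinib and 3.30 to 3.67 with vehicle, with a difference of -0.24 (adjusted p = 0.396), and -0.28 without V5. With the 3'/5' excess as a covariate the difference of 1421765_at was -0.040 (SE 0.19) and that of 1454401_at was -0.43 (SE 0.17). Both Pax5 probe sets were dim, and so were most others here, since 10 of the 15 had a mean below 6.08 log2, the median over all probe sets.

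Jchain had the largest difference and the largest spread of the 9 genes. Its probe set 1424305_at was at 8.43, 7.97, 7.06, 7.46 and 11.87 log2 on the baricitinib arrays and at 9.89, 11.98, 12.04, 11.53 and 9.61 on the vehicle arrays. B1 to B4 were below every vehicle array, and B5 was level with V2, V3 and V4. The means were 8.56 ± 1.92 and 11.01 ± 1.17 (SD, n = 5 each), a difference of -2.45 (SE 0.90, 95% interval -4.46 to -0.45), or 5.47-fold lower with baricitinib, with an adjusted p of 0.279. Without B5 the difference was -3.28 (adjusted p = 0.121) and without V5 it was -2.80 (adjusted p = 0.106). Without B5 the groups did not overlap for Jchain, Cd79b and 1450912_at of Ms4a1, 3 of the 15, against 3.39% of all probe sets with baricitinib lower.

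Mzb1, an endoplasmic reticulum protein that aids antibody assembly and secretion, had the difference nearest to 0 of the 9 genes. Its probe set 1428947_at was at 4.37, 4.47, 5.36, 5.13 and 6.87 log2 with baricitinib and 4.79, 6.76, 5.93, 5.62 and 4.09 with vehicle. B5 was the highest and V5 the lowest of all arrays, and the groups overlapped throughout. The difference was -0.20 (SE 0.58, 95% interval -1.49 to 1.10, adjusted p = 0.844), so that a difference of 1 log2 in either direction is inside the interval. Without V5 it was -0.54, without B5 it was -0.61 and without V2 it was 0.13. Plasmacytoid dendritic cell genes, another possible source, had 7 measured genes of 8 with a mean of 7.24 to 7.67 on the baricitinib and 7.36 to 8.29 on the vehicle arrays. Their part in the Mzb1 value was not tested.

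Sdc1, or CD138, is the surface proteoglycan used to sort plasma cells, and it was the exception among the markers. Probe set 1415943_at was at 13.16, 13.22, 12.96, 13.04 and 13.24 log2 with baricitinib and 13.22, 13.29, 13.07, 13.14 and 10.81 with vehicle. Apart from V5 all arrays lay between 12.96 and 13.29. The difference of 0.42 (SE 0.44, adjusted p = 0.576) became -0.06 (adjusted p = 0.728) without V5. Probe set 1415944_at was at 11.90 to 12.62 on all arrays except V5, at 8.82, and its difference was 0.86 with V5 and 0.16 without. On 1437279_x_at V5 did not stand apart and the difference was -0.20 (adjusted p = 0.476), and -0.26 without V5. On 1448158_at the groups were at 7.47 to 8.60 and 6.58 to 8.43, with a difference of 0.72 (adjusted p = 0.380), and 0.58 without V5. The 4 probe sets therefore disagreed in sign. Keratinocyte genes, 9 measured of 10, had a mean of 12.04 to 12.66 with baricitinib, 12.09 to 12.40 on V1 to V4 and 11.49 on V5, and their part in the Sdc1 values was not tested.

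**Figure D2:**
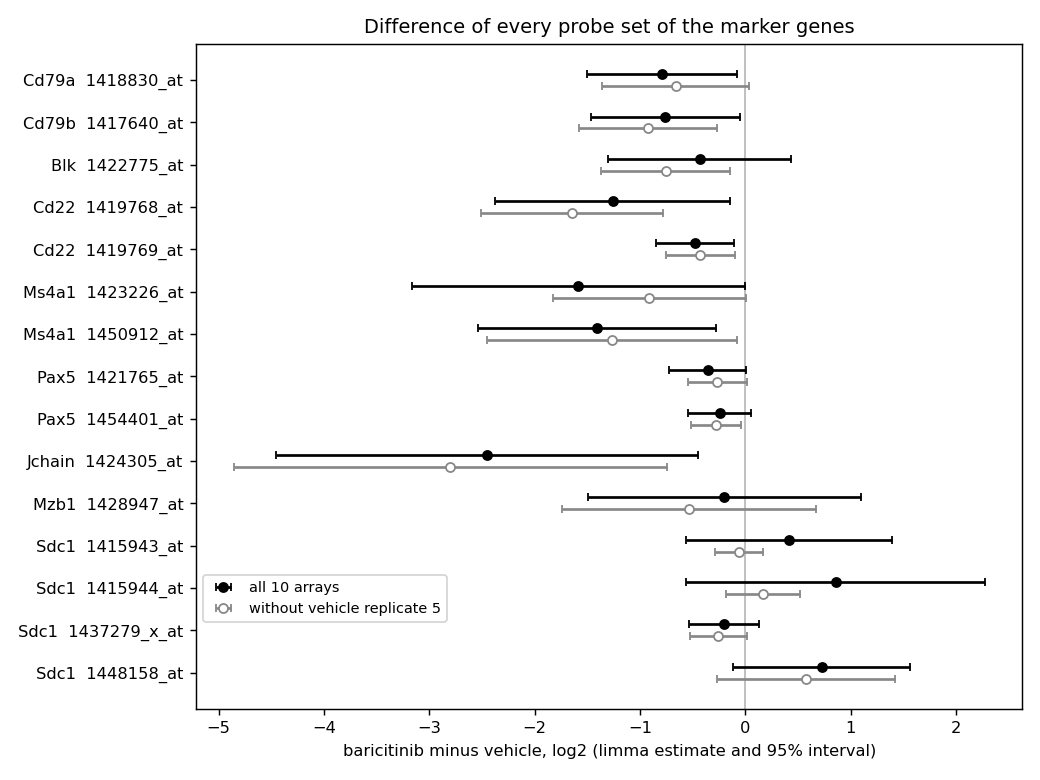
Difference between baricitinib and vehicle (x axis, log2) for each of the 15 probe sets, as limma estimates with 95% intervals over all 10 arrays (black) and without V5 (grey, open). The 11 probe sets of the 8 genes other than Sdc1 lie below 0 in both settings, from -2.45 (Jchain) to -0.20 (Mzb1) over all arrays, and those of Sdc1 lie on both sides.

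The arrays within a group ranked alike across many of the markers. Leaving out Sdc1, B5 was the highest baricitinib array in 8 of 11 probe sets and lay within the range of V1 to V4 in 7 of them. V2 or V3 was the highest of V1 to V4 in 10 of 11. V5 was the lowest vehicle array in 5 and the highest in 3 of the 11. Averaged over the 9 genes, B1 to B4 were at 5.69 to 5.81 log2, B5 at 6.83, V1 to V4 at 6.34 to 7.36 and V5 at 6.28. This average includes Sdc1, which was at 10.81 on V5 and 13.07 to 13.29 on V1 to V4. Over Cd79a, Cd79b, Blk and Cd22 V5 was at 4.97, below V1 to V4 (5.44 to 6.33). Over Ms4a1 and Pax5 it was at 6.04, above V1 to V4 (3.65 to 4.93). As in the marker average, B1 to B4 were below V1 to V4 in the T cell means given above. There B5 lay between them, with 13 of 14 T cell genes negative against 49.7% of named genes. Their median difference was -0.80, against 0.005, and 0 passed the threshold. The part of T cells in the marker values was not tested.

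Immunoglobulin transcripts were listed under 21 symbols with 45 probe sets, and 41 of the 45 were negative, against 55.4% of all probe sets. Several of the 45 read the same gene, so they are not separate observations. Their median difference was -0.69, against -0.07 over all probe sets, and without V5 it was -0.43, against -0.04. None passed the adjusted threshold, 11 were lower and 0 higher at an unadjusted p under 0.05, against a background of 5.62% and 9.21%. Without V5 these were 21 and 0, against 13.5% and 14.4%. Many of these probe sets can match several rearranged or related genes, so their gene names are uncertain. Igkv8-30, a kappa variable segment read by 1452463_x_at, was at 8.82, 8.501, 7.57, 8.85 and 11.99 log2 with baricitinib and 9.54, 11.98, 11.42, 11.79 and 8.68 with vehicle. As for Jchain, B5 was level with V2 and V4 and V5 was low. The difference of Igkv8-30 was -1.54 (adjusted p = 0.410), that of Igk, the kappa chain, was -1.31 (adjusted p = 0.531, and -2.26 without V5) and that of Igkv19-93 was -1.61 (adjusted p = 0.412). Igkv19-93 was at 11.71 on V5 and at most 6.80 on the other vehicle arrays, and without V5 its difference was -0.59. At the other end were Ighv14-2 at -0.18 (-0.28 without V5), a kappa variable segment read by 1427753_at at -0.14 (-0.063 without V5) and the IgG3 gene Ighg3 at 0.40 (adjusted p = 0.557), the only one of the named symbols above 0.

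The heavy chains that Jchain joins were examined after their values had been seen. Igha, the IgA heavy chain read by 1421653_a_at, was at 10.53, 10.004, 9.15, 10.10 and 13.28 log2 with baricitinib and 11.17, 13.33, 12.74, 13.02 and 6.82 with vehicle. B5 was as high as V2, and V5 was the lowest of all arrays. The difference of Igha was -0.80 (adjusted p = 0.703) with V5 and -1.95 (adjusted p = 0.145) without. Ighm, the IgM heavy chain, had 11 probe sets with differences from -2.60 to 0.31. Its 1427869_at was at 3.72, 3.65, 3.39, 3.87 and 6.22 with baricitinib and 5.73, 8.15, 9.22, 5.73 and 5.04 with vehicle, and B5 alone made the groups overlap. That difference was -2.60 (SE 0.86, adjusted p = 0.253), while the brightest Ighm probe set, 1427351_s_at, gave -1.06 (adjusted p = 0.421). A kappa variable probe set, 1451948_at, also chosen after its values were seen, was the 1 of the 45 whose groups did not overlap, at 3.64 to 3.86 against 3.88 to 4.48. That share is near the background of 2.03%.

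Of 34 other B cell genes 31 were measured and the rest were not analysed here. Negative differences were found in 23 of 31 (49.7% of named genes), with a median of -0.26, and 0 passed the adjusted threshold. At an unadjusted p under 0.05, 8 were lower and 0 higher, against 6.22% and 9.81% of all named genes. Ikzf3 (Aiolos), a lymphoid transcription factor also used by T cells, was at 5.56, 4.48, 5.55, 5.50 and 7.98 log2 with baricitinib and 8.91, 8.95, 9.39, 8.23 and 6.38 with vehicle. B5 and V5 again made the overlap. The difference of Ikzf3 was -2.56 (adjusted p = 0.227) and -3.05 (adjusted p = 0.0733) without V5. Pou2af1, the B cell coactivator of octamer binding factors, was at 3.90, 3.38, 3.33, 4.12 and 6.84 with baricitinib and 6.13, 7.72, 7.83, 6.003 and 4.62 with vehicle, a difference of -2.15 (adjusted p = 0.280). Fcrla, an intracellular Fc receptor-like protein of B cells, had a difference of -1.56 (adjusted p = 0.290).

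The largest positive differences in that list were those of S1pr2 (0.82), Ebf1 (0.74) and Tnfrsf13c, the receptor for the survival factor BAFF (0.71, and 0.25 without V5). Ebf1, an early B cell factor that stromal and fat cells also express, was at 9.93 to 10.88 log2 with baricitinib, 8.64 to 9.80 on V1 to V4 and 11.29 on V5, and without V5 its difference was 1.15 (adjusted p = 0.0737). S1pr2 was at 4.43 on V5 and 7.78 to 8.53 on V1 to V4, and its difference was 0.05 without V5. Cr2 and Cd180 were the 2 of 31 genes whose groups did not overlap, against 1.82% of named genes with baricitinib lower, and are named after their values were seen. Cr2, the complement receptor of B cells and follicular dendritic cells, was at 3.46 to 3.91 with baricitinib and 4.03 to 4.59 on V1 to V4, with V5 at 7.53. Cd180, a Toll-like receptor relative on B cells and macrophages, was at 4.53 to 4.998 with baricitinib and 5.12 to 6.49 with vehicle, a difference of -0.89 (adjusted p = 0.242).

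Plasma cell and secretory pathway genes had mostly positive differences when V5 was included. Of 21 measured genes out of 22, 5 had a negative difference (49.7% of named genes) and the median was 0.43, against 0.005 over named genes. Without V5 12 were negative and the median was -0.07, close to the 57.2% and -0.06 of all named genes in that setting. None passed the adjusted threshold, and 2 were lower and 2 higher at an unadjusted p under 0.05, close to the 6.22% and 9.81% of all named genes. Xbp1, which drives the secretory program, was at 10.26 to 10.84 log2 with baricitinib, 10.57 to 10.90 on V1 to V4 and 6.10 on V5. Its difference was 0.84 with V5 and -0.09 without. For Prdm1, the regulator of plasma cell formation, these differences were 0.19 and -0.17, and for the growth factor Manf they were 0.996 and 0.14.

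Irf4, a regulator shared by plasma cells, activated T cells and other leukocytes, was at 9.81, 9.56, 10.21, 10.41 and 10.39 log2 with baricitinib and 8.87, 9.18, 8.89, 9.71 and 7.21 with vehicle. Vehicle arrays other than V4 were below every baricitinib array, and the difference was 1.30 (adjusted p = 0.249). Txndc5, a protein disulfide isomerase, had a difference of 1.35 (adjusted p = 0.331), and 0.81 without V5. Slamf7, a surface receptor of plasma cells and cytotoxic lymphocytes, was at 6.35, 5.99, 6.61, 6.33 and 7.14 with baricitinib and 8.11, 7.96, 8.15, 7.34 and 6.94 with vehicle. The difference of Slamf7 was -1.22 (adjusted p = 0.223), and without V5 it was -1.41 (adjusted p = 0.0733). Without V5 its groups did not overlap, as for 861 of 18193 named genes with baricitinib lower. Derl3, which removes misfolded proteins from the endoplasmic reticulum, had a difference of -0.70 (adjusted p = 0.277), Cd27 of -0.17 (-0.67 without V5) and Tnfrsf17, the BCMA receptor of plasma cells, of 0.33 (adjusted p = 0.459).

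**Figure D3:**
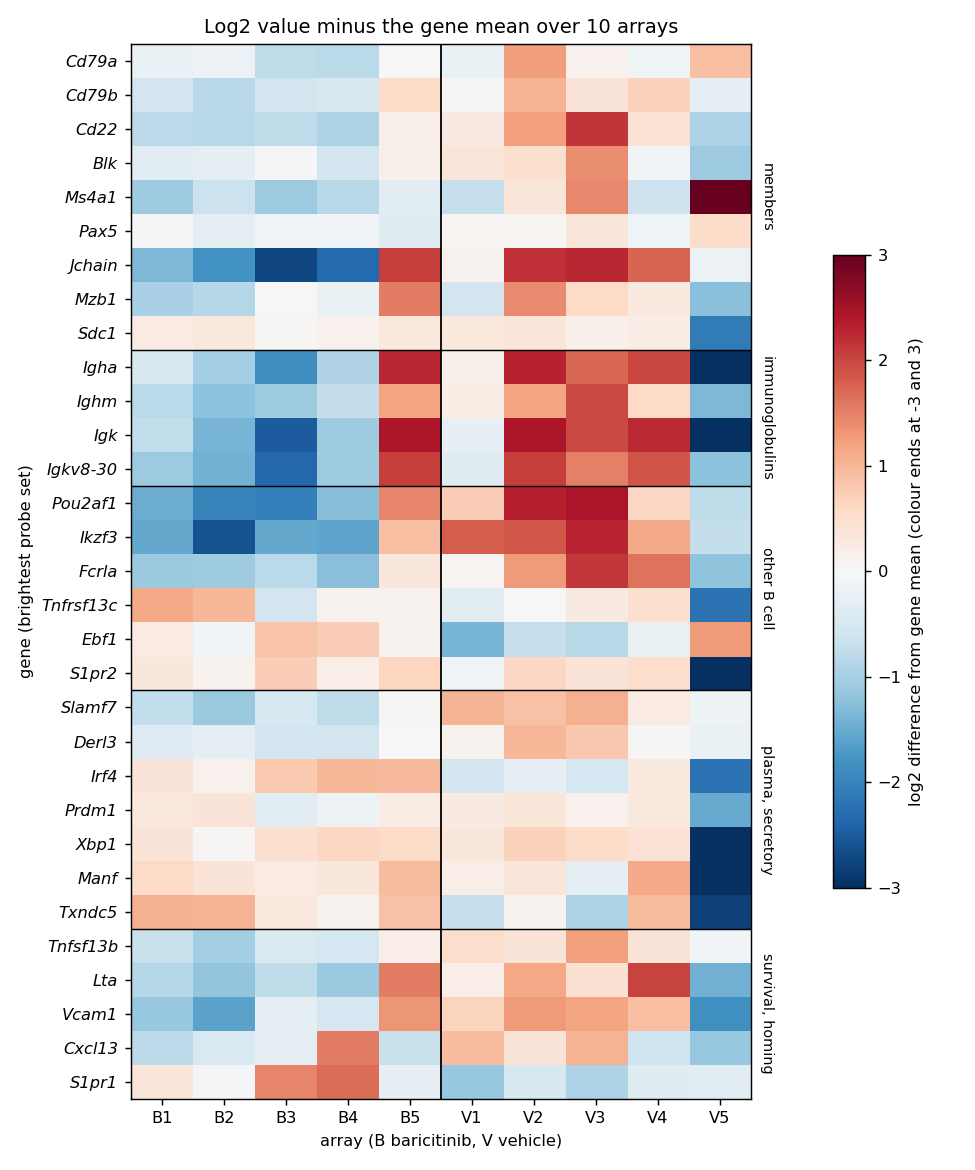
Log2 values centred on each gene (colour, difference from that gene's mean across arrays, ending at -3 and 3) for the 9 markers and named immunoglobulin, B cell, plasma cell and survival or homing genes, in rows, on B1 to B5 and V1 to V5, in columns. Jchain, Igkv8-30 and Pou2af1 are low on B1 to B4 and high on B5, V2, V3 and V4, while Xbp1, Manf and S1pr2 stand out on V5 alone, where Xbp1 is at 6.10 log2.

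Factors that keep or guide B lineage cells were measured for 17 of 20 genes, and Tnfsf13, Ccl19 and Ccl21a were not analysed here. Of the 17, 14 differences were negative against 49.7% of named genes, with a median of -0.33, and 0 passed the adjusted threshold. At an unadjusted p under 0.05, 2 were lower and 1 higher, against 6.22% and 9.81%. Tnfsf13b, which encodes BAFF, was at 7.22, 6.87, 7.46, 7.36 and 8.09 log2 with baricitinib and 8.42, 8.28, 9.13, 8.29 and 7.82 with vehicle. Only B5 and V5 overlapped, and the difference of Tnfsf13b was -0.99 (adjusted p = 0.230) and -1.13 (adjusted p = 0.0738) without V5. Lta, a lymphotoxin subunit, had a difference of -0.95 (adjusted p = 0.470) and Vcam1, an adhesion molecule, of -0.88 (adjusted p = 0.489). Without V5 they were -1.43 and -1.45. S1pr1, the receptor for lymphocyte exit from tissue that endothelium also expresses, was at 4.86 to 6.81 with baricitinib and 3.98 to 4.79 with vehicle. Its difference was 1.29 (adjusted p = 0.240) with no overlap, as for 692 of 18193 named genes with baricitinib higher. The differences were -0.25 (adjusted p = 0.793) for the B cell chemoattractant Cxcl13, 0.19 for the homing chemokine Cxcl12 and 0.04 for the addressin Madcam1, and without V5 they were -0.56, -0.056 and 0.099.

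**Figure D4:**
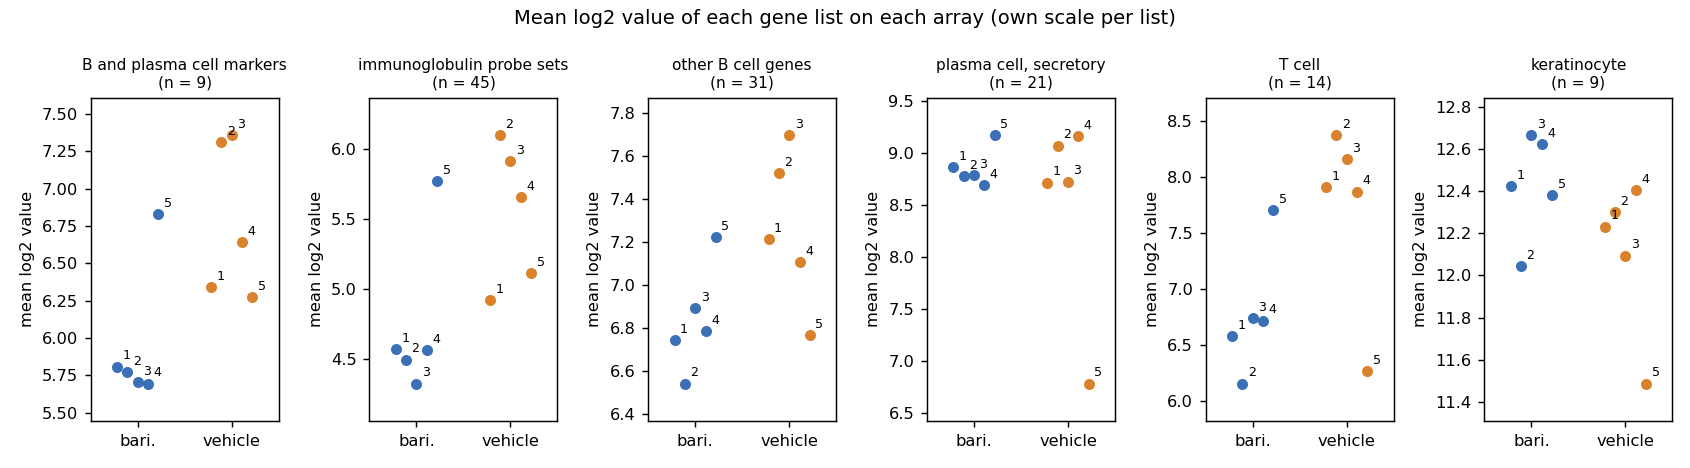
Mean log2 value (y axis, own scale per list) of each gene list on each array, with baricitinib arrays in blue and vehicle arrays in orange, numbered by replicate. For the 9 markers B1 to B4 lie at 5.69 to 5.81 and V1 to V4 at 6.34 to 7.36, with B5 at 6.83 and V5 at 6.28, and V5 is the lowest array for the plasma cell and keratinocyte lists. The marker mean includes Sdc1, at 10.81 on V5 and 13.07 to 13.29 on V1 to V4.

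For members whose brightest probe set had an SD above 1 log2 over the 10 arrays, the genes with the most similar profile were sought by the mean absolute difference of centred log2 values, as a description. For Jchain these were Igkv8-30 (0.49), Pou2af1 (0.54) and the chemokine gene Ccl1 (0.54). For Cd22 they were C3ar1, the receptor for complement C3a (0.18), Pik3ap1, a signalling adaptor of B cells and macrophages (0.19), and Hpx, the haem carrier hemopexin (0.24). For Ms4a1 they were Dppa2 (0.23), 4930447M23Rik (0.24) and 4930431P03Rik (0.26), and like Ms4a1 each had its highest value on V5, at 6.88, 8.63 and 7.58 log2. The neighbours of Jchain thus included an immunoglobulin segment and a B cell coactivator, and those of Ms4a1 included no gene of the B cell lists.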

How the data were processed

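RNA of skin biopsies was amplified (NuGen) and read on Affymetrix mouse genome arrays. The deposited log2 expression values per probe set were made by the authors with RMA, of unstated version. RMA equalises probe intensities between arrays before it summarises them by probe set, and the spread of the summarised values still differed on 1 array (V5). The study's methods removed 1 vehicle array that the labels do not name, so all 10 arrays were kept and each was left out in turn.

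Groups and replicate numbers came from the sample titles. After 64 control probe sets were set aside, limma (version 3.58.1, run in R 4.3.3) compared the groups in 45037, by moderated two-sided tests (lmFit, then eBayes) with Benjamini-Hochberg adjustment over them all and a threshold of 0.05. The calculation was run on simulated data with independent noise and no outlying array, so that test does not bear on the effect of V5 or B5. Of these probe sets 34945 had 1 symbol in the platform annotation, 932 several and 9160 none, and a gene was read by its brightest probe set. The number of arrays limits the precision. Each p-value sets a group difference against the spread within groups, which holds differences between mice and between arrays alike.

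The markers and gene lists were chosen with earlier results of these data known. Named were all marker probe sets, the 3 largest differences in each direction of the 4 related lists, the largest in each direction of the other lists, 8 defining genes where measured, and the 3 most similar genes of variable markers. Alternatives were a filter on dim probe sets, cyclic loess, median centring, weights for array quality, a replicate block, trend and robust settings, the 3'/5' excess of Gapdh and beta-actin as a covariate and the mean of all probe sets of a gene.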

Additional observations from a re-analysis of the deposited data

Results flagged for a closer look

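In 26 of 128 groups of 5 arrays (markers and other named genes), 1 array lay far from the other 4, by over 0.71 of the group's range. Chance gives about 5% for a single group. Many of these genes were chosen by their differences, by likeness to a marker or after their values were seen. All groups also share the same arrays, so the 26 cannot be judged against that 5%. Of the 26, B5 accounted for 13 and V5 for 12, and 6 were among the 30 groups of the markers.

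On B5 the values far above the other baricitinib arrays were 11.87 log2 for Jchain (others up to 8.43), 6.07 for Cd79b, 5.52 for Cd22 probe set 1419768_at and 3.83 for Ms4a1 probe set 1450912_at. Among related genes they were 6.84 for Pou2af1, 4.92 for Fcrla, 11.99 for Igkv8-30, 10.06 and 6.22 for Ighm probe sets 1427351_s_at and 1427869_at, 7.80 for Lta, 10.02 for Cd8a, 5.77 for Hpx and 8.88 for Ccl1.

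On V5 the values far below the other vehicle arrays were 10.81 and 8.82 for Sdc1 probe sets 1415943_at and 1415944_at, 4.43 for S1pr2, 5.93 for Manf, 6.10 for Xbp1, 8.66 for Prdm1, 7.18 for Vcam1, 4.81 for Cd8a, 6.08 for Cd3g and 5.67 for Ccl1. V5 was far above the others for Igkv19-93 at 11.71 and Cr2 at 7.53. On B4, Cxcl13 was at 11.50 against 9.18 to 9.70 on the other baricitinib arrays.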

How the results depend on the processing

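Array quality weights gave V5 a weight of 0.0289 and B1 one of 5.43, and 9676 of all probe sets (21.5%) then passed the threshold. So did 8 of 15 marker probe sets (both of Cd22 and of Ms4a1, 1454401_at of Pax5, Cd79b, Blk and Jchain). Of other B cell genes 11 of 31 passed, of plasma cell and secretory genes 4 of 21 and of survival or homing genes 6 of 17. The share over named genes was not worked out in this setting, so these counts are not read as results about the lists. Of immunoglobulin probe sets 14 of 45 passed. In every other setting run the marker count stayed at 0. Leaving out single arrays gave 0 to 848 passing probe sets in all (12 without B5, 848 without V4) and 0 to 3 markers without overlap (3 without B5, 1 without V3, V4 or V5). Median centring gave 1. Weights, block, trend and covariate leave the values, and so this overlap, as they are. Over all probe sets, baricitinib was lower without overlap in 3.39% without B5, in 4.11% without V5 and in 3239 of 45037 without V4. That share was not worked out without V3 or with median centring, so those counts are not read as results about the markers. The filter on dim probe sets left Jchain and Sdc1 alone, hence 1 negative gene. With the 3'/5' excess as a covariate the differences were 0.033 for Ms4a1 1423226_at and -0.26, -0.35 and -0.30 for Sdc1 1415943_at, 1415944_at and 1448158_at, and -2.93 for Jchain, -1.24 for Cd79b, -0.80 for Mzb1, -0.51 for Ms4a1 1450912_at, -0.040 and -0.43 for Pax5 1421765_at and 1454401_at and -0.11 for Sdc1 1437279_x_at. With cyclic loess Pax5 1454401_at was at 0.043, Pax5 1421765_at at -0.15, Cd22 1419769_at at -0.23 and Sdc1 1437279_x_at and 1448158_at at -0.33 and 0.41, and Sdc1 1415943_at was at -0.057 with weights. Leaving out single arrays, Mzb1 ranged from -0.61 to 0.13 (0.02 without B1, 0.13 without V2) and Sdc1 1415943_at from -0.057 to 0.56. Apart from the effect of the weights and from fewer genes or arrays by construction, the cause was not tested. Same-numbered mice deviated together in no clear way (r from -0.23 to 0.09, with only replicate 2 nearest to its own number), and the replicate block gave 0 marker probe sets past the threshold and a median of -0.76.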

Other observations

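Other cell types of the skin that could hold some of these transcripts gave the following values. Among 7 plasmacytoid dendritic cell genes, Ccr9, a homing receptor, was at 4.69 to 5.80 log2 with baricitinib and 5.69 to 6.73 with vehicle (difference -1.11, adjusted p = 0.222), while the transcription factor Tcf4 was at 11.11 to 11.57 and 10.54 to 11.12 (0.51, adjusted p = 0.249). Of the gamma delta T cell genes, Il17a was at 3.17 to 3.39 and 3.52 to 3.94 (-0.46, adjusted p = 0.236) and Sox13 differed by 0.55 (adjusted p = 0.492), and by 0.16 without V5. Among keratinocyte genes, Krt15, a keratin of basal and follicle stem cells, was at 12.52 to 13.92 with baricitinib and 9.41 to 11.89 with vehicle. Its difference was 2.49 (adjusted p = 0.221) with no overlap, as for 692 of 18193 named genes with baricitinib higher. Krt1, a keratin of differentiating epidermis, was at 11.07 to 12.26 and 12.12 to 13.40 (-1.05, adjusted p = 0.230). In the T cell list Cd8a differed by -3.80 (adjusted p = 0.286) and Cd3g by 0.31 (adjusted p = 0.818), and the difference of Cd3g was -0.41 without V5.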
